A study of Homo sapiens with 6 samples.

Results

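The 10 genes described here encode secreted proteins of the extracellular matrix. They comprise 6 matrix glycoproteins (FN1, TNC, THBS1, TGFBI, SPARC and POSTN) and 4 lysyl oxidases (LOX, LOXL1, LOXL2 and LOXL4). They were taken by name from a list drawn up with earlier results of these data known, so their shared direction is not independent evidence, and each had 1 probe set that named it alone, so all 10 were among the 18404 genes tested. RNA was measured on 6 arrays of HaCaT, a spontaneously immortalised human keratinocyte line, taken 72 hours after infection with lentivirus that carried a hairpin against TP63 (shTP63, 3 samples) or the control vector (shControl, 3 samples), so both groups had received virus. TP63 encodes p63, a transcription factor of basal keratinocytes. The series asked about p63, the chromatin remodelling subunit ACTL6A and Hippo-YAP in squamous cell carcinoma. The number of hairpins is not given in the sources used here, and nothing in the labels says that replicates were separate cultures, so the spread behind the p-values is that of these samples and may be technical.

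Values are log2 intensities, and a difference is shTP63 minus shControl on that scale. The array medians were 7.54 to 7.57 in shTP63 and 7.44 to 7.47 in shControl, and the arrays correlated over probe sets at r of 0.996 to 0.998 within a group and 0.988 to 0.991 between groups. Precision is limited by the number of arrays, with a median standard error of 0.0531 over the differences of all genes. TP63 was not analysed here, so every direction rests on the sample labels. Of 10 keratinocyte markers measured, all lay above the background level in both groups, with 1 that rose (CDH1) and 5 that fell (SFN, KRT5, PKP1, KRT14 and DSG3). By the same rule 16.4% of all genes were higher and 25.1% lower. Every marker except KRT16 belonged to the brightest of 5 equal bins by mean level. Falls were common at that brightness, with 1618 genes lower and 932 higher out of 3681. Whether the markers fell more often than other bright genes was not tested. The background level was 6.81, the 95th percentile of the mean levels of 359 olfactory receptor genes. That class was assumed to be mostly silent here, which was not tested. These are bulk samples, in which fewer cells of a type and less RNA per cell cannot be told apart.

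Fibronectin, the product of FN1, is secreted as a dimer and drawn into fibrils by integrins at the cell surface. Tenascin-C (TNC), thrombospondin-1 (THBS1), SPARC and periostin (POSTN) are matricellular proteins, which modulate adhesion and signalling more than they carry load. TGFBI, named for its induction by TGF-beta, is a relative of periostin that binds collagens and integrins. Lysyl oxidases are copper-dependent enzymes that oxidise lysines of collagen and elastin, from which covalent cross-links then form. LOX and LOXL1 are made as proenzymes with propeptides, whereas LOXL2 and LOXL4 carry scavenger receptor domains.

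The promoters of 4 of the glycoprotein genes are shown because they span the range of responses on these arrays, from the large rises of TNC and FN1 through the smaller rise of THBS1 to POSTN, which did not pass the test. Each is the 250 bases before the annotated start, from RefSeq (GRCh38.p14), read 5′ to 3′ on the gene's strand. Capitals mark matches on either strand to any of the motifs searched, which were TATAA (TATA box core), GGGCGG (GC box), TGACGTCA (cyclic AMP response element), TGANTCA (AP-1), GGAATG (TEAD), ACGTG (hypoxia response core) and 2 CATG cores with any 6 bases between them (as in p53-family sites). Neighbouring matches can overlap and then form 1 run of capitals.
TNC (chr9:115118158-115118407, minus strand): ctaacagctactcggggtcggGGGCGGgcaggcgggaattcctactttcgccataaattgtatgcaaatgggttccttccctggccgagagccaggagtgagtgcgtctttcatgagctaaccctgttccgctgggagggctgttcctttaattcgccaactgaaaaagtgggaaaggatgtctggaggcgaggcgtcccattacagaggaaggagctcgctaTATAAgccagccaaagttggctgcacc
FN1 (chr2:215436069-215436318, minus strand): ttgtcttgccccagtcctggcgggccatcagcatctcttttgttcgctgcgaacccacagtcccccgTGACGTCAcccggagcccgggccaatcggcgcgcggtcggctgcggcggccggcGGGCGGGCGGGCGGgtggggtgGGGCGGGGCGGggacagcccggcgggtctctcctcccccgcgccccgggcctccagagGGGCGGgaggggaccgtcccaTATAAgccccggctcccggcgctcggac
THBS1 (chr15:39580829-39581078, plus strand): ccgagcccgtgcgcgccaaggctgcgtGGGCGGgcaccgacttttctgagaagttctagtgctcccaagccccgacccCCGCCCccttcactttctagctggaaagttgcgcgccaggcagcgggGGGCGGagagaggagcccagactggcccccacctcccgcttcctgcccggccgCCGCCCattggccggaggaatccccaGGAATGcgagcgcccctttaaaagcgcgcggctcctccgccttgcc
POSTN (chr13:37598769-37599018, minus strand): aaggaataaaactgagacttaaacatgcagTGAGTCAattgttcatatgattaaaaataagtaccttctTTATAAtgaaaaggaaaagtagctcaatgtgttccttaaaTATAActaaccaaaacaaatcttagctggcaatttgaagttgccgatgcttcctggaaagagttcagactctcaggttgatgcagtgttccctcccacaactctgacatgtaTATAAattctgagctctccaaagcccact

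Promoter sequences were held for 9 of the 10 genes, all but LOXL2, and for LOX the outermost of its 3 starts was used. FN1, TNC and POSTN had TATAA on the gene's strand, ending 24, 23 and 25 bases before the start, while the other 6 windows held none. At any position and on either strand, that motif occurred in 18.9% of the 35116 promoter windows of the same length. The share with it at this distance on the gene's strand was not counted. GGGCGG was present in 6 of the 9 windows, against 42.6% of all windows, with 6 matches each in FN1 and LOXL4. THBS1 and SPARC each held 1 GGAATG, which was found in 11.9% of all windows. TGACGTCA occurred in FN1 among the 9 (1.65% of all windows), TGANTCA in POSTN (6.57%), and ACGTG in LOX, with 4 matches (18.5%). The paired CATG motif was in none of the 9 windows and in 0.296% of all windows. LOXL1 held none of the motifs searched. These matches are letters in a window and do not show that a factor binds there.

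Matrix glycoprotein and lysyl oxidase transcripts were higher in shTP63 than in shControl for 9 of the 10 genes, which passed an adjusted p of 0.05 (limma, Benjamini-Hochberg over all 18404 genes). Among all genes 16.4% rose and 25.1% fell by the same rule. In the same 9 genes every shTP63 value lay above every shControl value, as it did for 20.9% of all genes. LOXL2, TNC and FN1 rose by at least 2-fold, a size reached by 0.446% of all genes in that direction. The median difference over the 10 genes was 0.55, against -0.01 over all genes. When all genes were split by mean level into 5 equal bins, 7 of the 10 fell in the brightest, and all 7 rose, whereas 932 of the 3681 genes of that bin did (25.3%), where the median difference was -0.10.

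**Figure D1:**
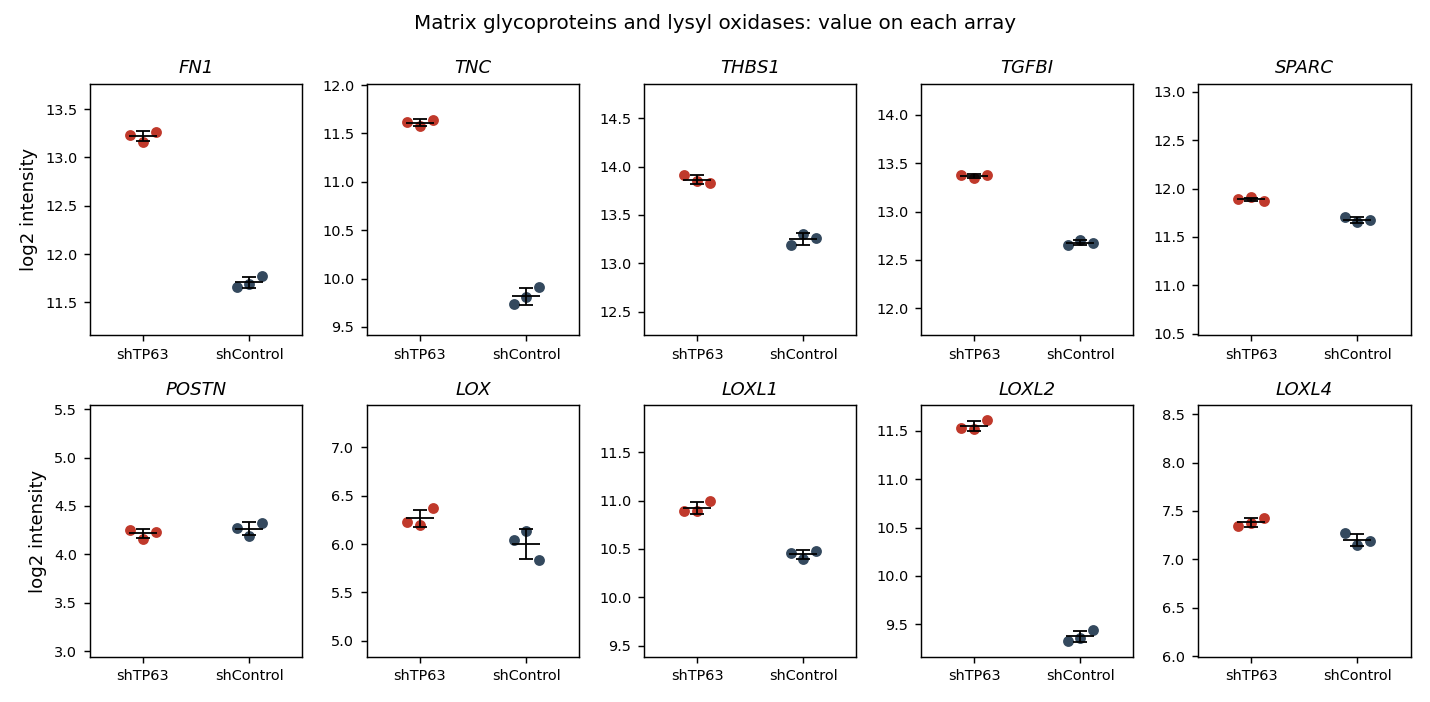
Log2 intensity of each gene on each array, with shTP63 in red on the left and shControl in dark blue on the right of each panel. Bars are the mean and SD of 3 arrays, and every panel spans the same number of log2 units around its own mean. LOXL2, TNC and FN1 show the widest gaps, and in POSTN the groups overlap.

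Among the glycoproteins, TNC had the largest rise. Its log2 intensities were 11.62, 11.58 and 11.64 in shTP63, against 9.74, 9.81 and 9.91 in shControl. The shTP63 arrays lay close together, well above the shControl arrays. The difference was 1.79 ± 0.054 (SE, n = 3 per group), or 3.47-fold (limma adjusted p = 1.39e-07). It ranked 18 among the rises of all genes.

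FN1 had values of 13.23, 13.16 and 13.26 in shTP63, against 11.66, 11.69 and 11.77 in shControl. No array of either group came near the other group. The difference was 1.51 ± 0.050 (SE), or 2.85-fold (limma adjusted p = 2.55e-07), and it ranked 33 among the rises. With 1 probe set per gene, splice forms of fibronectin and of tenascin-C cannot be told apart here.

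TGFBI and THBS1 rose less, each with groups that did not overlap. TGFBI measured 13.38, 13.35 and 13.38 in shTP63, against 12.65, 12.70 and 12.68 in shControl. Its difference of 0.69 ± 0.041 (SE), 1.61-fold, was 28.6 times the larger of its within-group SDs (limma adjusted p = 5.06e-06). THBS1, which encodes a ligand of CD47 and CD36 that can activate latent TGF-beta, measured 13.92, 13.85 and 13.83 in shTP63, against 13.19, 13.30 and 13.26 in shControl. That was a difference of 0.61 ± 0.049 (SE), or 1.53-fold (limma adjusted p = 2.16e-05).

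SPARC, a collagen-binding glycoprotein also called osteonectin, rose by a small amount. Its values were 11.89, 11.91 and 11.88 in shTP63, against 11.71, 11.65 and 11.68 in shControl. The arrays of a group spanned at most 0.0592, and the difference of 0.21 ± 0.041 (SE), 1.16-fold, passed (limma adjusted p = 0.00277). With each array centred on its median the difference was 0.11 and the call was lost (adjusted p = 0.0631).

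POSTN, which fibroblasts are known to secrete, did not pass. It measured 4.26, 4.16 and 4.23 in shTP63, against 4.27, 4.19 and 4.32 in shControl. The groups overlapped, and all 6 values lay under the background level. The difference was -0.05 ± 0.051 (SE), with a 95% interval of -0.16 to 0.07 (limma adjusted p = 0.504), and at such a level a change would be compressed. After centring on the array median POSTN fell, with a difference of -0.155 (adjusted p = 0.0335).

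All 4 lysyl oxidases passed, with very unequal sizes. LOXL2 measured 11.53, 11.52 and 11.61 in shTP63, against 9.32, 9.36 and 9.44 in shControl. The lowest shTP63 array was 2.08 above the highest shControl array. The difference was 2.18 ± 0.050 (SE), or 4.53-fold, with a 95% interval of 2.07 to 2.29 (limma adjusted p = 3.80e-08). It was the largest difference of the 10 genes and ranked 8 among the rises of all genes.

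LOXL1, an enzyme best known for its part in elastic fibres, measured 10.89, 10.89 and 10.99 in shTP63, against 10.46, 10.39 and 10.48 in shControl. Its groups were clearly apart. The difference was 0.48 ± 0.049 (SE), or 1.40-fold (limma adjusted p = 7.50e-05).

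LOX itself measured 6.23, 6.20 and 6.37 in shTP63, against 6.04, 6.14 and 5.83 in shControl. The closest arrays of the groups were 0.060 apart, and every value lay under the background level, so the size of the change is uncertain. The difference of 0.26 ± 0.081 (SE), 1.20-fold, passed with a limma adjusted p of 0.0280. The call was lost without shControl replicate 3 (0.18, adjusted p = 0.0809), without shTP63 replicate 3 (0.21, adjusted p = 0.0918) and with all 4 other scalings tried, where the adjusted p was 0.0552 to 0.163.

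LOXL4 measured 7.34, 7.38 and 7.43 in shTP63, against 7.27, 7.15 and 7.18 in shControl. The closest arrays of the groups were 0.069 apart. Both group means lay little above the background level of 6.81, so the size of the change is uncertain. The difference of 0.18 ± 0.049 (SE), 1.13-fold, had a limma adjusted p of 0.0166. It was lost without shControl replicate 2 (adjusted p = 0.0685), shControl replicate 3 (0.0581) or shTP63 replicate 3 (0.0505), and under 3 of the 4 other scalings (0.0648 to 0.259), with differences down to 0.07. LOXL3, the other member of the enzyme family, was looked up as part of a list of collagen-modifying genes and is named here after its value was seen. It had 7.01 ± 0.059 in shTP63 and 7.01 ± 0.022 in shControl (SD, n = 3), a difference of 0.00 ± 0.046 (SE, limma adjusted p = 0.955). LOXL3 thus lay little above the background level, where a change would be compressed.

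**Figure D2:**
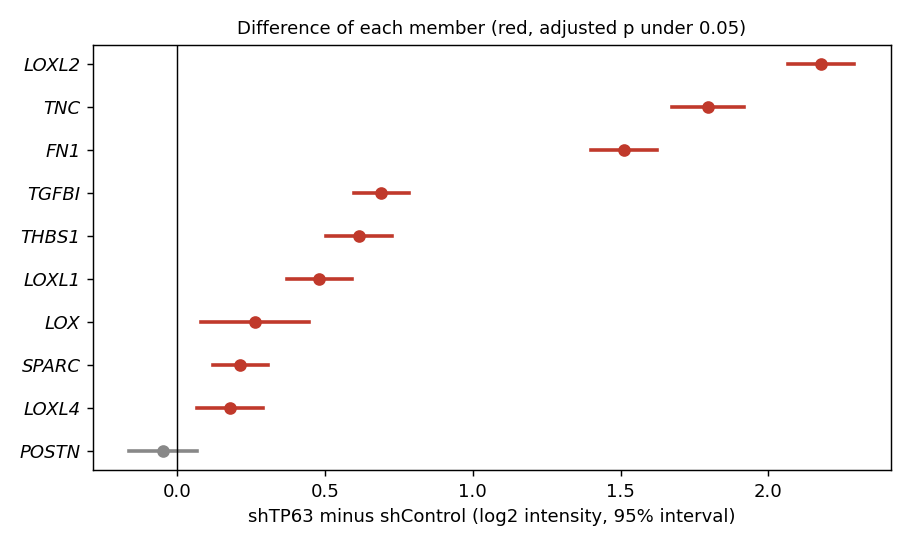
Difference between shTP63 and shControl (log2 intensity) for each gene, ordered by size, with its 95% interval from limma as a bar. Red marks an adjusted p under 0.05. LOXL2 at 2.18, TNC at 1.79 and FN1 at 1.51 stand apart from the other genes, which lie at 0.69 or below.

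Neighbours in the order of the differences were set side by side by the log2 ratio of the 2 genes on each array, which shows unequal change and sets no level against another. Because the genes were sorted by these same differences, the sign of each step is fixed and the steps are a description, with no test. The difference of LOXL2 exceeded that of TNC by 0.38 ± 0.026 (SE), that of TNC exceeded FN1 by 0.28 ± 0.021 and that of FN1 exceeded TGFBI by 0.82 ± 0.039, and the ratios of the groups did not overlap in these 3 pairs. The steps from TGFBI to THBS1 (0.07 ± 0.033), from THBS1 to LOXL1 (0.13 ± 0.078) and from SPARC to LOXL4 (0.03 ± 0.036) had ratios that overlapped between the groups. Steps that involve LOX or POSTN are not given, since both lay under the background level.

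The genes whose profiles over the 6 arrays, centred on the gene's mean, lay nearest to those of the 3 largest rises were identified by root mean square distance. For LOXL2 they were BAMBI (0.046), GPRC5B (0.085) and CXCL8 (0.10). For TNC they were ADAM19 (0.049), CYP24A1 (0.067) and PAPPA (0.069), and for FN1 they were TFPI2 (0.058), CDH2 (0.060) and CHST11 (0.063). With 2 groups of 3 arrays, such nearness mainly reflects a difference of similar size.

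The counts of the related lists below come from the same fit and are descriptions. Beside each of them stand the shares over all genes, of which 16.4% rose and 25.1% fell. In the brightest of the 5 bins 932 of 3681 genes rose and 1618 fell. Of 47 relatives of the 6 glycoproteins and other matrix glycoproteins, 17 were called higher and 2 lower, at a median difference of 0.07. EFEMP1, a fibulin family glycoprotein, rose by 0.64 ± 0.043 (SE), MATN3, a matrilin, by 0.78 ± 0.065 and CCN1, a matricellular integrin ligand, by 0.65 ± 0.055 (limma adjusted p of at most 2.93e-05). MATN3 measured 6.04 in shControl, under the background level, and 6.81 in shTP63, at that level, so the size of its change is uncertain. SPP1 and SPARCL1, chosen after seeing their values, were the 2 that fell, both under the background level. Among thrombospondin relatives, THBS2, THBS3 and THBS4 were also chosen after seeing their values. They gave differences of 0.10 ± 0.082, -0.11 ± 0.071 and 0.04 ± 0.046, none of which passed (limma adjusted p = 0.244 to 0.510). THBS4 lay under the background level in both groups, and THBS2 was close to it, at 6.94 in shTP63 and 6.84 in shControl. The count of falls was 0 without shControl replicate 1, shTP63 replicate 1 or shTP63 replicate 3, and 1 without shControl replicate 3 or shTP63 replicate 2. Centring on the array median gave 12 rises and 7 falls in this list, and another quantile normalization 15 and 5.

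Enzymes and chaperones that act on collagen before or beside the lysyl oxidases included 16 of 26 that rose and 0 that fell in limma, with a median difference of 0.26. PXDN, a peroxidase that cross-links collagen IV, rose by 0.80 ± 0.044 (SE). P4HA1 and P4HA2, subunits of the prolyl hydroxylases of collagen, rose by 0.61 ± 0.047 and 0.61 ± 0.047 (limma adjusted p of at most 1.88e-05). Chosen after seeing their values, BMP1, the protease that activates the LOX proenzyme, rose by 0.22 ± 0.049 and ATP7A, the copper pump that supplies lysyl oxidases, by 0.19 ± 0.051. Their limma adjusted p were 0.00661 and 0.0141, and neither gene was rerun under the alternatives. CRTAP had a difference of -0.00 ± 0.046 and ADAMTS2 of 0.00 ± 0.047, and neither of these, also chosen after seeing their values, passed. At an unadjusted p under 0.05 the count of falls in this list was 0, and after centring on the array median 14 rose and 2 fell.

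The fibrillar collagens and elastin are among the substrates of the lysyl oxidases. Of these 12 genes 4 rose and 0 fell in limma (0 also at an unadjusted p under 0.05), and their median difference was 0.11. COL5A1 rose by 0.41 ± 0.059 (SE), COL27A1 by 0.32 ± 0.052 and COL1A1 by 0.18 ± 0.047 (limma adjusted p of at most 0.0134). The COL1A1 call was lost without shControl replicate 3 and after centring. COL5A2, named after its value was seen, was the other rise, under the background level and with overlapping groups. COL3A1, COL1A2 and elastin (ELN), likewise chosen after seeing their values, had differences of 0.05, 0.11 and 0.12 and did not pass. Both COL3A1 and COL1A2 lay little above the background level. The count of rises was 2 without shControl replicate 3, 6 without shControl replicate 1 and 2 after centring.

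Among receptors of the 6 glycoproteins, 10 of 18 rose and 2 fell, and the median difference was 0.27. ITGA5, whose integrin assembles fibronectin fibrils, measured 10.23 ± 0.128 in shTP63 and 8.82 ± 0.056 in shControl (SD, n = 3), a difference of 1.42 ± 0.067 (SE). ITGB6 rose by 1.25 ± 0.049 and its partner ITGAV, a subunit of several receptors of fibronectin, tenascin-C and periostin, by 0.82 ± 0.042 (limma adjusted p of at most 2.43e-06). CD47, a thrombospondin receptor chosen after seeing its value, rose by 0.58 ± 0.052, whereas CD36, chosen in the same way, had a difference of -0.03 ± 0.082 at levels under background in both groups. The proteoglycans SDC1 and SDC3, likewise chosen after seeing their values, were the 2 that fell.

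TGF-beta signalling, which is known to induce TGFBI, FN1 and TNC in many cells, showed 11 rises and 4 falls among 25 measured genes, with a median difference of 0.10. INHBA, an activin subunit, rose by 1.90 ± 0.044 (SE), the ligand TGFB2 by 0.89 ± 0.040 and the receptor TGFBR2 by 0.85 ± 0.046 (limma adjusted p of at most 3.19e-06). The 4 that fell, chosen after seeing their values, were SMAD2, SKI, SMAD4 and TGFBR3. These counts give no direction of signalling, which was not tested. After centring 10 rose and 6 fell.

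**Figure D3:**
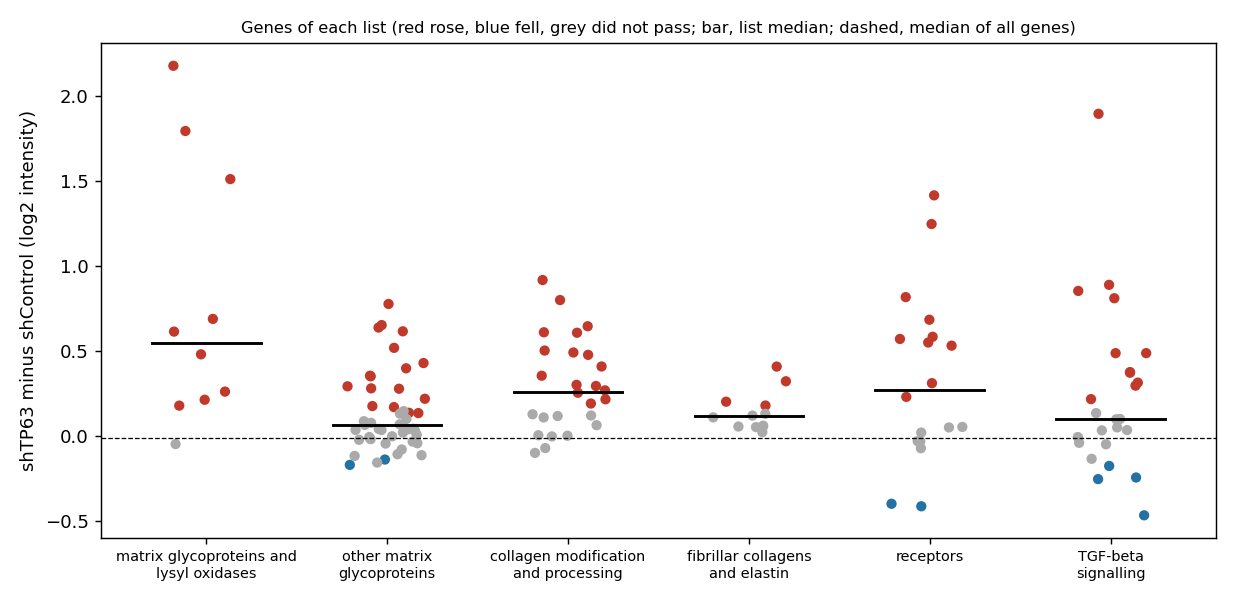
Difference between shTP63 and shControl (log2 intensity) of every measured gene in the 10-gene set and in 5 related lists, each point 1 gene. Red points rose and blue points fell at an adjusted p under 0.05, grey points did not pass, bars are list medians and the dashed line is the median of all genes, -0.01. The list medians run from 0.07 for other glycoproteins to 0.55 for the 10 genes.

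Several of the 10 genes are also used by fibroblasts, so markers of other cell types were read on the same arrays. Of 12 fibroblast markers 2 rose (FAP and COL1A1) and 1 fell (DCN), and their mean level ranged over 6.82 to 6.89 on the shTP63 arrays and 6.74 to 6.83 on the shControl arrays. Among all genes 16.4% rose and 25.1% fell. Of the fibroblast markers 6 lay under the background level in both groups, FAP and DCN among them, and 6 lay above it in both. PDGFRA, chosen after seeing its value, was another under it, with 5.69 ± 0.079 in shTP63 and 5.61 ± 0.044 in shControl (SD, n = 3). COL1A1 had the highest level of the fibroblast markers, 8.58 in shTP63 and 8.40 in shControl. Of 6 endothelial markers 1 rose (CLDN5) and 1 fell (VWF, under the background level in both groups), and of 5 melanocyte markers 1 rose (PMEL). Of 6 immune markers 0 passed in limma, with 1 higher and 0 lower at an unadjusted p under 0.05. The part of other cells in the rises of LOXL2, TNC and FN1 was not tested.

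Over 16 alternatives LOXL2 ranged from 2.07 to 2.25, TNC from 1.69 to 1.87 and FN1 from 1.40 to 1.58, and each passed in all 16. TGFBI (0.58 to 0.75), THBS1 (0.51 to 0.67) and LOXL1 (0.37 to 0.55) also passed in all 16, whereas SPARC, LOX and LOXL4 each lost their call in at least 1. Centring each array on its median moved the median of all genes from -0.01 to -0.12, and the calls among the 10 genes then were 6 rises and 1 fall. LOXL2, TNC and FN1 then differed by 2.07, 1.69 and 1.40.

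**Figure D4:**
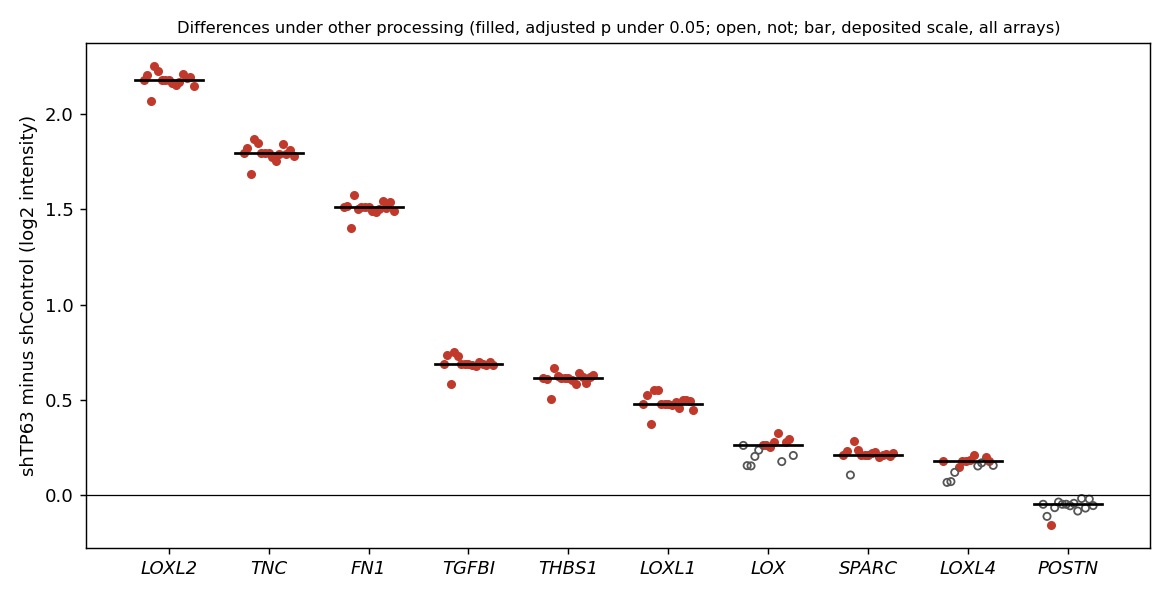
Difference between shTP63 and shControl (log2 intensity) of each gene under the alternatives in scaling, variance estimate, weights, pairing, probe set choice, filter and left-out array. Filled points passed an adjusted p of 0.05, open points did not, and bars give the value on the deposited scale with all arrays. The points of LOX and LOXL4 fall on both sides of the threshold, and those of LOXL2, TNC, FN1, TGFBI, THBS1 and LOXL1 are all filled.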

How the data were processed

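RNA of 6 HaCaT samples, 3 shTP63 and 3 shControl, grouped by the treatment label, was measured on 1-colour arrays of 32321 probe sets. Per the submitters' processing notes, the authors made the values with RMA in R 2.15.1, and they were deposited as intensities on a linear scale, of which log2 was taken here. RMA includes a normalization between arrays, which can reduce a change shared by all genes, although the deposited medians still differed between the groups. Per the labels' protocols, cDNA was primed with oligo-dT and transcribed into biotin-labelled cRNA, whereas the annotation is that of a whole-transcript array, so the labelling, and the part of a transcript that a value covers, are uncertain. The genome build is not given in the sources used here.

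The platform annotation gave 19158 probe sets 1 gene, 1388 several and 11775 none; 19128 matched RefSeq by Entrez identifier. For each of 18404 genes the single-gene probe set with the highest mean was tested with limma 3.58.1 in R 4.3.3 (lmFit, eBayes, two-sided, no covariate, Benjamini-Hochberg, threshold 0.05), after the fit was tested on simulated data. Alternatives were the replicate block, 4 other scalings, leaving out the dimmest 40%, averaged probe sets, each array left out, a threshold of 0.01, array weights and a robust prior with a trend. Named from the related lists were the 3 genes with the smallest adjusted p, other genes being marked, and for the 3 largest differences the 3 nearest profiles. The members and lists were chosen with earlier results of these data known. No batch was given by the labels, and no 2 arrays held identical values.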

Additional observations from a re-analysis of the deposited data

How the results depend on the processing

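Of 157 values of the 10 genes under the alternatives, 140 kept their direction and their side of the threshold, 16 lost their call (8 of LOX, 7 of LOXL4 and 1 of SPARC), 1 gained a call (POSTN, as a fall) and 0 changed sign. The count of members that rose was 9 and ranged from 6, with arrays centred on their median, to 9. It was 7 to 9 with 1 array left out, and the lowest count came without shControl replicate 3 or shTP63 replicate 3. The count of members that fell in limma was 0 on the deposited scale, also 0 at an unadjusted p under 0.05, and 1 (POSTN) after centring. With the dimmest 40% left out, POSTN, LOX and LOXL4 were not tested and the other 7 rose. Over all genes the calls numbered 6483 to 7290 with 1 array left out, against 7634 with all, and falls made up 60.5% of the calls, 81.7% after centring (1782 rises, 7932 falls), 69.0% after another quantile normalization, 58.6% with cyclic loess and 52.8% when quantiles were matched within single-gene probe sets alone. Same-numbered arrays did not deviate together (correlations of -0.15, -0.0368 and 0.125), so the numbers were not taken as pairs. The replicate block gave 7165 calls and 8 members that rose, the lost call being that of LOX (adjusted p = 0.0669). Of 160 counts of the related lists, 142 stayed within 1.5 times, and 380 of 383 values of genes that are no member kept their call, the exceptions being those of COL1A1; these are the 24 genes named by the rule, and other genes in the text were not rerun. No member had a second probe set, so averaging left their differences as they were and other probe sets gave no value. LOX and POSTN lay under the background level and LOXL4 little above it, which limits the values of these genes.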
